A study of Mus musculus with 17 samples.

Results

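The IL-6 family of cytokines and receptors was followed as 10 genes in every library of the series, out of 30406 genes that all 17 libraries listed. The genes were taken by symbol: the ligands Il6, Il11, Lif and Osm, the shared signalling chain Il6st, and the receptors Il6ra, Il11ra1, Osmr, Lifr and Il31ra. All of the 10 had UMIs in skin and in kidney. Single-cell RNA libraries had been made from mouse skin (8 libraries) and kidney (9 libraries) after tissue digestion and sorting of GFP-positive cells. Every mouse carried PDGFRb-Cre and the Z/EG reporter, which turns on GFP where Cre has acted, and treatment began at 8 weeks of age. Skin came from SARAWT mice given PBS (3 libraries) or bleomycin (3 libraries) and from SARATg mice given PBS (1 library) or bleomycin (1 library); bleomycin was injected under the skin at 20 mg/kg, 3 times a week for 2 weeks. Kidney came from SARAWT mice given vehicle (3 libraries) or aristolochic acid (3 libraries) and from SARATg mice given vehicle (2 libraries) or aristolochic acid (1 library); aristolochic acid was injected into the peritoneum at 5 mg/kg, 3 times a week for 3 weeks. SARATg mice hold a human ZFYVE9 (SARA) cDNA behind a floxed stop in Rosa26, read from the CAG promoter once Cre has removed the stop. The PDGFRb-Cre line also acts in leukocytes, so GFP marks far more than pericytes in these libraries. Whether each library came from a separate mouse was not given in the sources used here, so the p-values below measure the spread between libraries.

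The family is built around one shared chain. gp130, the product of Il6st, is present on most cells and starts JAK and STAT3 signalling when a cytokine brings its partners together. IL-6 binds IL-6 receptor alpha (Il6ra) and IL-11 binds IL-11 receptor alpha (Il11ra1), and either complex then pairs gp130 molecules; a shed form of IL-6 receptor alpha lets cells without their own copy respond. LIF joins gp130 to LIF receptor (Lifr), and oncostatin M (Osm) in mice signals mainly through gp130 with OSM receptor (Osmr). IL-31 uses Osmr with Il31ra and without gp130, and is known as an itch cytokine of skin. In fibrosis the family is known for signals from leukocytes and injured cells to stromal cells, with IL-11 acting on fibroblasts themselves.

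Cells were assigned to classes by marker genes among which none of the 10 genes was included, and UMIs were summed per library and class. Levels are UMIs per 1000000 UMIs (CPM) of the class in one library, counted at the 3′ end of transcripts, and are compared between classes and libraries for one gene at a time. After quality filters 28969 skin and 66474 kidney cells were kept, from libraries of 3355217 to 69765525 UMIs in skin and 28660151 to 137093834 in kidney. The gate gave no class to 28.1% of skin cells and 11% of kidney cells. In these sums, fewer positive cells and less RNA per cell cannot be told apart, and free RNA in droplets was not removed, so a low level in a class need not come from its cells.

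Several libraries stood apart from their labels. Zfyve9, the mouse counterpart of the transgene, was at 615 CPM in the library labelled skin SARAWT PBS 3, beside 7.87 to 25.9 CPM in the other SARAWT skin libraries and 314 and 221 CPM in the SARATg skin libraries. Of those other SARAWT libraries, only bleomycin 3 (8.91 CPM) was counted on the same gene list as PBS 3 and the SARATg libraries. The longer list has human ZFYVE9 as an entry of its own, so Zfyve9 levels are not like for like between the lists. The library labelled skin SARAWT PBS 1 had human ZFYVE9 at 845 CPM over all its barcodes, against 190 CPM in PBS 2 and 89.3 and 115 CPM in bleomycin 1 and 2, the other libraries whose gene list has that transcript. PBS 2 and bleomycin 1 and 2 thus held 638, 2115 and 2558 UMIs of it, although they too are labelled SARAWT. Fits without PBS 1 and 3 therefore still hold libraries with human ZFYVE9 UMIs, the cause of which was not tested. In kidney, Zfyve9 was at 162 CPM in the library labelled SARAWT aristolochic acid 1 and at 19.7 CPM in the library labelled SARATg aristolochic acid 1, where SARATg vehicle libraries had 92.1 and 89.3 CPM. Between 7.38% and 55.5% of cell barcodes in the 4 skin libraries with the longer gene list (PBS 1 and 2, bleomycin 1 and 2) were found again in a further skin library, where the other 4 skin libraries had 0.824% or less. The skin PBS 2 library was the smallest, with 845 barcodes. Fits without the skin libraries labelled PBS 1 and 3 rest on PBS 2 as the 1 PBS library, whose spread is taken from the bleomycin libraries; of the 49 pairs of family gene and class tested below 37 could be fitted this way, 31 kept their direction and 0 were called. Without the library labelled SARAWT aristolochic acid 1, 28 of 35 kidney pairs kept their direction (edgeR). In endothelial and dendritic cells these fits rest on 1 treated library, of 17 and 80 cells, and their spread is taken from the vehicle libraries.

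In 3 cases a pair of the genes lies on one chromosome. In GRCm38 (GENCODE vM21), Osm (ENSMUSG00000058755, chr11:4236420-4241026, plus strand) precedes Lif (ENSMUSG00000034394, chr11:4257557-4272514, plus strand). Osmr (ENSMUSG00000022146, chr15:6813577-6874969, minus strand) and Lifr (ENSMUSG00000054263, chr15:7090614-7197489, plus strand) lie on chromosome 15. Il6st (ENSMUSG00000021756, chr13:112464070-112510086, plus strand) and Il31ra (ENSMUSG00000050377, chr13:112519898-112594360, minus strand) lie beside each other on chromosome 13. The remaining genes are Il6 (ENSMUSG00000025746, chr5:30013114-30019981, plus strand), Il11 (ENSMUSG00000004371, chr7:4772373-4782859, minus strand), Il6ra (ENSMUSG00000027947, chr3:89864059-89913196, minus strand) and Il11ra1 (ENSMUSG00000073889, chr4:41699989-41769474, plus strand). Il11ra1 has near-identical copies listed as Il11ra2 under 3 identifiers; these held 1 UMI in skin and 0 in kidney, beside 13214 and 17122 UMIs for Il11ra1, so its counts are uncertain as far as reads were split or discarded between copies.

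Promoters of the 3 genes that were called after bleomycin in skin (Il6, Il11ra1 and Il31ra) and of Il11, the ligand of Il11ra1, are shown, from 250 bases before to 50 bases after the RefSeq start in GRCm38.p6, on the strand of the gene. Capitals mark a match on either strand to AP-1 (TGANTCA), the cyclic AMP response element (TGACGTCA), a STAT motif (TTCNNNGAA) or the NF-kB motif, whose letters leave 1 position free.
Il6, chr5:30012864-30013163, plus strand: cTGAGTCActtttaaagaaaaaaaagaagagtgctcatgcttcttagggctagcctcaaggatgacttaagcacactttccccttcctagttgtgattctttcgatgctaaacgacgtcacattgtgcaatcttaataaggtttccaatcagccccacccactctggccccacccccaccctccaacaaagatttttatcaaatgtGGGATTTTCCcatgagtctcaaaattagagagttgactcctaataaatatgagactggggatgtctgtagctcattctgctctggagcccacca
Il11, chr7:4778092-4778391, minus strand: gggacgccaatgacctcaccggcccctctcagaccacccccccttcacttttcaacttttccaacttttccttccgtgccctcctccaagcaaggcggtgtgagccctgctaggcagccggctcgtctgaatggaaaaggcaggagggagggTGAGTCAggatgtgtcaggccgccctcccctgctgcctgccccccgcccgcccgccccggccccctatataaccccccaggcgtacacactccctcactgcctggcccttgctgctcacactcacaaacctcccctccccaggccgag
Il11ra1, chr4:41760193-41760492, plus strand: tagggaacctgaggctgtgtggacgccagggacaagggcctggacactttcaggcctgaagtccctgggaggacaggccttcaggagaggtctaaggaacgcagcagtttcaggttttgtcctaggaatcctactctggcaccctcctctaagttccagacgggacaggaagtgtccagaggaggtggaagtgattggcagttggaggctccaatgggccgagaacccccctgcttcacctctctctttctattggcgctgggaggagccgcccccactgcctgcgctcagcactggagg
Il31ra, chr13:112580613-112580912, minus strand: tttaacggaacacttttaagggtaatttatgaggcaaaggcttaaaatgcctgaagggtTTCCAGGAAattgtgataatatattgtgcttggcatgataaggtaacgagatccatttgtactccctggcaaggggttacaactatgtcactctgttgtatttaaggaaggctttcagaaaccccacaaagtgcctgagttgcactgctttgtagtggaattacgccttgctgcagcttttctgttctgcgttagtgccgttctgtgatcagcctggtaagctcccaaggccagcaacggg
Il6 had an AP-1 match starting at -249 and an NF-kB match starting at -44 from the start site, and Il11 had an AP-1 match at -98. Il31ra had a STAT match at -191. The Il11ra1 window held none of these letters, nor did a second RefSeq start of that gene or of Il11. Among 32851 RefSeq promoter windows of this length, 7.81% held the AP-1 letters, 1.79% the cyclic AMP response element, 8.30% the STAT letters and 0.411% the NF-kB letters. The AP-1, STAT and NF-kB patterns do not contain one another, and each match describes the sequence alone.

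In skin the ligands came from different cells. With PBS in SARAWT skin, mean Il6 was highest in mural cells (1136 ± 867 CPM, SD, n = 3 libraries), endothelial cells (690 ± 603, n = 3) and mast cells (406 ± 328, n = 2), then in stromal cells (201 ± 157, n = 3), macrophages or monocytes (102 ± 76.5, n = 3) and dendritic cells (51.1 ± 10.1, n = 3). Neighbours in this order differed by less than the larger SD of the pair. With bleomycin the order was another one, with mast cells (524 ± 139 CPM, n = 3) first, then stromal cells (63.4 ± 22.6, n = 3), macrophages or monocytes (39.7 ± 21.5, n = 3), dendritic cells (29.2 ± 7.41, n = 3), mural cells (25.7 ± 36.3, n = 2) and endothelial cells (13.5 ± 12.2, n = 3). Every mast cell value in CPM was then above every stromal value. In UMIs, there were 134 of Il6 in 134 mast cells and 371 in 388 stromal cells after bleomycin, but 186 of the 371 came from 1 cell of bleomycin 1. Skin cells had a median of 1297 UMIs in mast cells, 2561 in neutrophils, 9865 in macrophages or monocytes and 15585 in stromal cells. The orders by CPM given here are therefore not orders of UMIs per cell. The levels of the other genes below are means over all libraries of the tissue, both treatments and the SARATg libraries included. Because macrophages or monocytes were the largest class (6386 cells), they still held 25% of all skin Il6 UMIs. Il11 was highest in stromal cells (37.5 ± 18.9 CPM, n = 8), which held 42.9% of its UMIs, with mural cells at 29 ± 32.7 CPM (n = 7). Lif was at 30.1 ± 20.7 CPM in mast cells (n = 7) and 24.5 ± 9.77 CPM in stromal cells (n = 8), levels that overlap, and stromal cells held 51.0% of its UMIs. Osm came from myeloid cells: 244 ± 117 CPM in neutrophils (n = 8), 120 ± 58 CPM in mast cells (n = 7) and 111 ± 35.8 CPM in macrophages or monocytes (n = 8), which held 62.8% of its UMIs. Taken apart by treatment in SARAWT libraries, the first place went to mural cells for Il11 with PBS (40.4 ± 52.7 CPM, n = 3, against 24.5 ± 5.17 in stromal cells) and to stromal cells for Lif with PBS (30.7 ± 10.4 CPM, n = 3), while neutrophils stayed first for Osm in either group. The mural SD for Il11 exceeded its mean, in libraries of 23, 11 and 42 mural cells, so 1 library could set that place.

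Among receptors in skin, the shared chain and the alpha chains parted between structural and myeloid cells. Il6st was highest in endothelial cells (366 ± 181 CPM, n = 8), Schwann cells (295 ± 128, n = 8), stromal cells (206 ± 85.4, n = 8) and mural cells (181 ± 43.6, n = 7), and each of these means was within the larger SD of the next; with bleomycin alone, Schwann cells (251 ± 38.9 CPM, n = 3) came before endothelial cells (229 ± 59.2, n = 3). The IL-6 binding chain Il6ra followed leukocytes, highest in neutrophils (159 ± 54.9 CPM, n = 8) and macrophages or monocytes (114 ± 29.2, n = 8). Il11ra1 was highest in stromal cells (183 ± 109 CPM, n = 8), which held 67.0% of its UMIs, followed by keratinocytes (77.4 ± 29.8, n = 8). Osmr marked vessel wall, muscle and stromal classes, with mural cells at the top (157 ± 64.9 CPM, n = 7), endothelial cells (111 ± 80.9, n = 8), muscle progenitors (92.3 ± 89.5, n = 7) and stromal cells (60.9 ± 24.7, n = 8) next. These levels overlapped between libraries. The order is that of the pooled libraries only. With bleomycin in SARAWT skin, the lowest endothelial and muscle progenitor values, given below, were under every stromal value. Lifr was highest in macrophages or monocytes (189 ± 77.4 CPM, n = 8), ahead of endothelial cells (86.5 ± 54.3, n = 8). Il31ra was low everywhere, at 9.83 ± 12.2 CPM in keratinocytes and 5.21 ± 6.1 CPM in stromal cells (n = 8 each). The keratinocyte mean was raised by the PBS 2 library, at 38 CPM from 5 UMIs in 19 cells, and UMIs pooled over libraries gave 2.93 CPM in keratinocytes and 7.81 CPM in stromal cells.

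**Figure D1:**
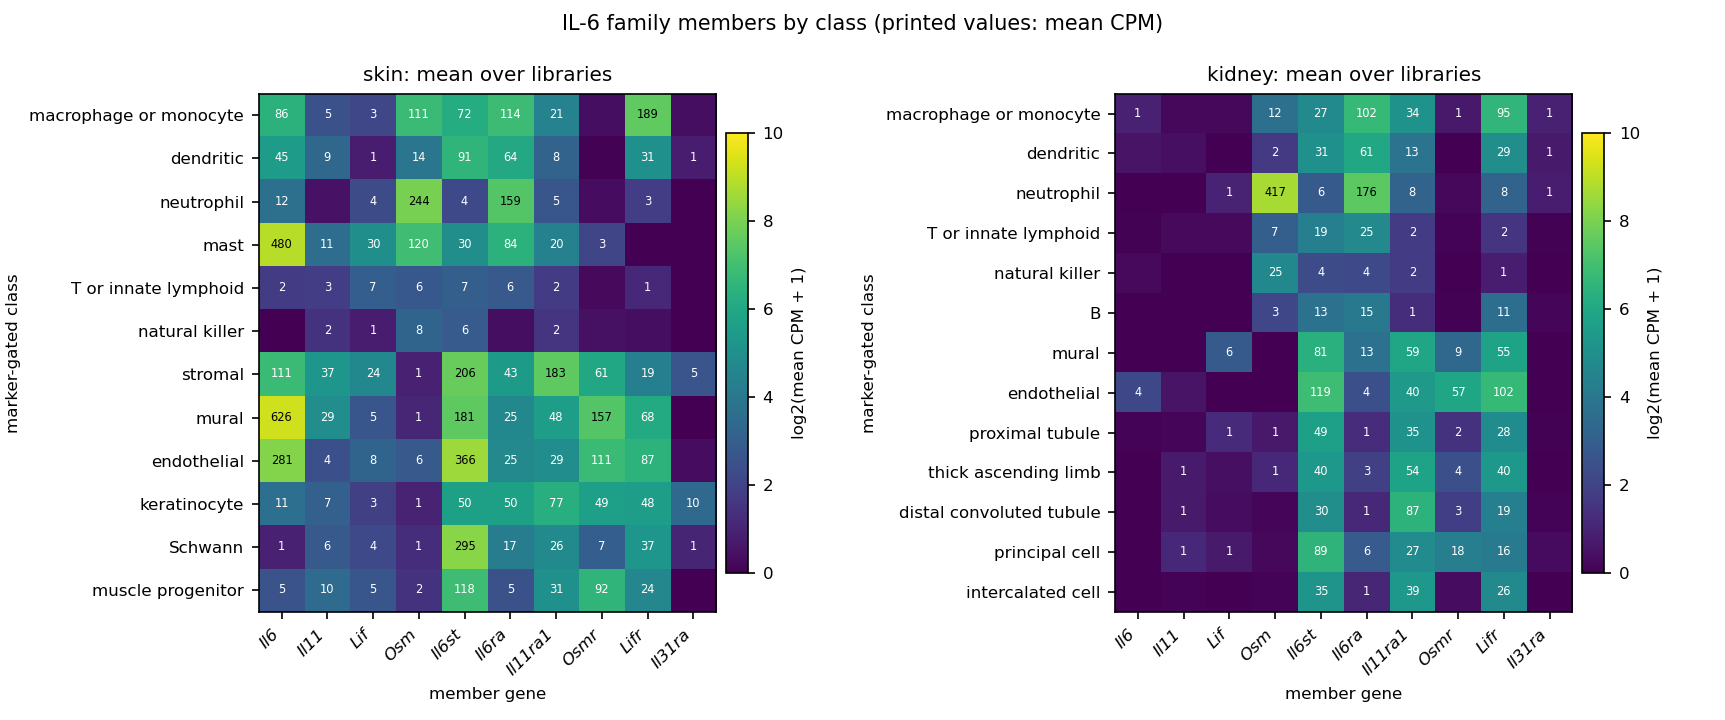
Heat maps of mean CPM over libraries for the 10 genes (columns) in each marker-gated class (rows) of skin (left) and kidney (right), coloured by log2(mean CPM + 1), with means that round to at least 1 CPM printed. In skin, with treatments pooled, Il6 is brightest in mural (626) and mast cells (480) and Osm in neutrophils (244), while in kidney the ligand columns are dark apart from Osm, which is brightest in neutrophils (417).

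The separation between stromal cells and macrophages or monocytes was tested library by library in skin. In an exact two-sided sign-flip permutation test over 8 libraries (smallest p 0.0078), with Benjamini-Hochberg adjustment over 30 tests in skin and kidney, 9 of 10 genes differed. On the log2(CPM + 1) scale, stromal cells were higher for Osmr by 5.54, Il11ra1 by 2.89, Lif by 2.73, Il11 by 2.72 and Il6st by 1.49, each in 8 of 8 libraries (adjusted p = 0.0138 in this exact test). Macrophages or monocytes were higher for Osm (mean stromal minus macrophage difference -5.90), Lifr (-3.22) and Il6ra (-1.56), also in 8 of 8 libraries with adjusted p = 0.0138 in the exact test. Il31ra was higher in stromal cells in 7 of 8 libraries (difference 1.64, adjusted exact p = 0.0247), where macrophages or monocytes averaged only 0.296 CPM. For Il6 the difference of 0.33 changed direction between libraries, with stromal cells higher in 4 and macrophages or monocytes higher in 4 (adjusted exact p = 0.676). Receptor chains thus fell on both sides, with Osmr, Il11ra1 and Il6st higher in stromal cells and Il6ra and Lifr higher in macrophages or monocytes. Osm was high where Osmr was near 0 (0.296 CPM in macrophages or monocytes).

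Bleomycin was compared with PBS in SARAWT skin with edgeR's quasi-likelihood test on the summed UMIs, adjusted over all genes of a class. The PBS group holds the libraries labelled PBS 1 and 3, whose ZFYVE9 or Zfyve9 levels went against their labels. Zfyve9 itself was called lower after bleomycin in muscle progenitors (log2 fold change -5.05, adjusted p = 0.025, edgeR) and in no other class. Treatment and SARA level therefore cannot be told apart in this comparison. All of the 10 genes could be tested in at least 1 class, giving 49 gene and class pairs, of which 3 fell and 0 rose. Of the 3, mural Il6 and stromal Il31ra passed the filter on low counts through the PBS libraries alone. For these pairs only a fall could be returned, so their direction is no support for a fall of the family. The same holds for endothelial Il6, Osmr and Lifr and mural Osmr, which reached the filter's level in too few bleomycin libraries. Further pairs of this kind were not counted. Over all 64678 gene and class pairs of this comparison 0.959% were called, 0.481% higher and 0.478% lower. Of the 49 pairs 37 had a negative and 12 a positive log2 fold change, with a median of -0.62 beside 0.0062 over all pairs. At an unadjusted p under 0.05 there were 20 lower and 3 higher pairs, where 7.02% of all pairs were lower and 6.84% higher at that threshold. The pairs repeat the same genes and libraries, so these counts of direction are descriptions and no test of the family.

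Il6, the founding cytokine of the family, fell in mural cells, the class of pericytes and smooth muscle. In PBS skin, mural Il6 was at 1930 CPM in the library labelled PBS 1 (251 UMIs in 23 cells), 212 CPM in PBS 2 (14 UMIs in 11 cells) and 1270 CPM in the library labelled PBS 3 (419 UMIs in 42 cells). After bleomycin it was at 0 CPM in bleomycin 2 (14 cells) and 51.3 CPM in bleomycin 3 (5 UMIs in 12 cells), while bleomycin 1 had only 7 mural cells and did not enter the fit. Every PBS library was above both bleomycin libraries. The log2 fold change was -5.42 (SE 1.05, adjusted p = 0.0087, edgeR, 3 against 2 libraries), in a class where 16.1% of 1984 genes were called, 8.37% higher and 7.71% lower. The mural calls are few-cell results: 1 cell held 115 of the 251 UMIs in PBS 1 and 10 of the 14 in PBS 2. Without the library labelled PBS 1 the fold change was -4.96 (adjusted p = 0.0895), and without the libraries labelled PBS 1 and 3 it was -2.87 (adjusted p = 0.404, edgeR). With predicted doublets kept, the fold change became -2.25 (adjusted p = 0.221, edgeR). With bleomycin 3 left out, so that the treated group had 0 UMIs, it was -10.48 (adjusted p = 0.000974, edgeR), a value that the prior count sets and not a measured fold. Summed mural markers were lower after bleomycin (9278 to 10103 CPM in PBS, 3749 and 6537 CPM after bleomycin) and summed stromal markers were higher (151 to 538 CPM against 1868 and 2643 CPM), as were Schwann cell markers (0, 30.2 and 9.07 CPM against 206 and 92.4 CPM); their part in the Il6 result was not tested.

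Il6 was also lower in 2 further structural classes, without passing the test in the main fit. In endothelial cells it passed in 5 of 17 alternative settings. Endothelial cells had 608, 133 and 1330 CPM in PBS 1, 2 and 3 and 0, 17 and 23.6 CPM in bleomycin 1, 2 and 3. With 6 UMIs in 64 cells after bleomycin, Il6 passed the filter on low counts there through the PBS libraries alone, so only a fall could be returned. The groups did not overlap, and the log2 fold change was -5.45 (SE 0.96, adjusted p = 0.082, edgeR), with 1 cell behind all 11 UMIs of PBS 2. Without the libraries labelled PBS 1 and 3 it was -3.03 (adjusted p = 0.833, edgeR). Stromal cells had 113, 382 and 108 CPM in PBS and 86, 63.3 and 40.9 CPM after bleomycin, a log2 fold change of -1.61 (SE 0.54, adjusted p = 0.126, edgeR). The highest stromal bleomycin value came from a single cell with 186 of its library's 209 Il6 UMIs. Mast cells, a source of stored and newly made cytokines in skin, had 174 and 639 CPM in PBS 1 and 3 and 561, 371 and 642 CPM after bleomycin, so their groups overlapped. The SARATg libraries, 1 of each treatment and therefore without a test, had mural Il6 at 917 CPM with PBS and 7.85 CPM with bleomycin, but 182 of the 195 UMIs behind the first value came from 1 cell. Summed CPM of 10 immediate early and heat shock genes, known to respond to tissue digestion, was 8962 to 13209 in mural cells with PBS and 6342 and 9064 with bleomycin, and 4767 to 13262 against 3098 to 10024 in endothelial cells. Whether these genes had a part in the Il6 values was not tested.

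**Figure D2:**
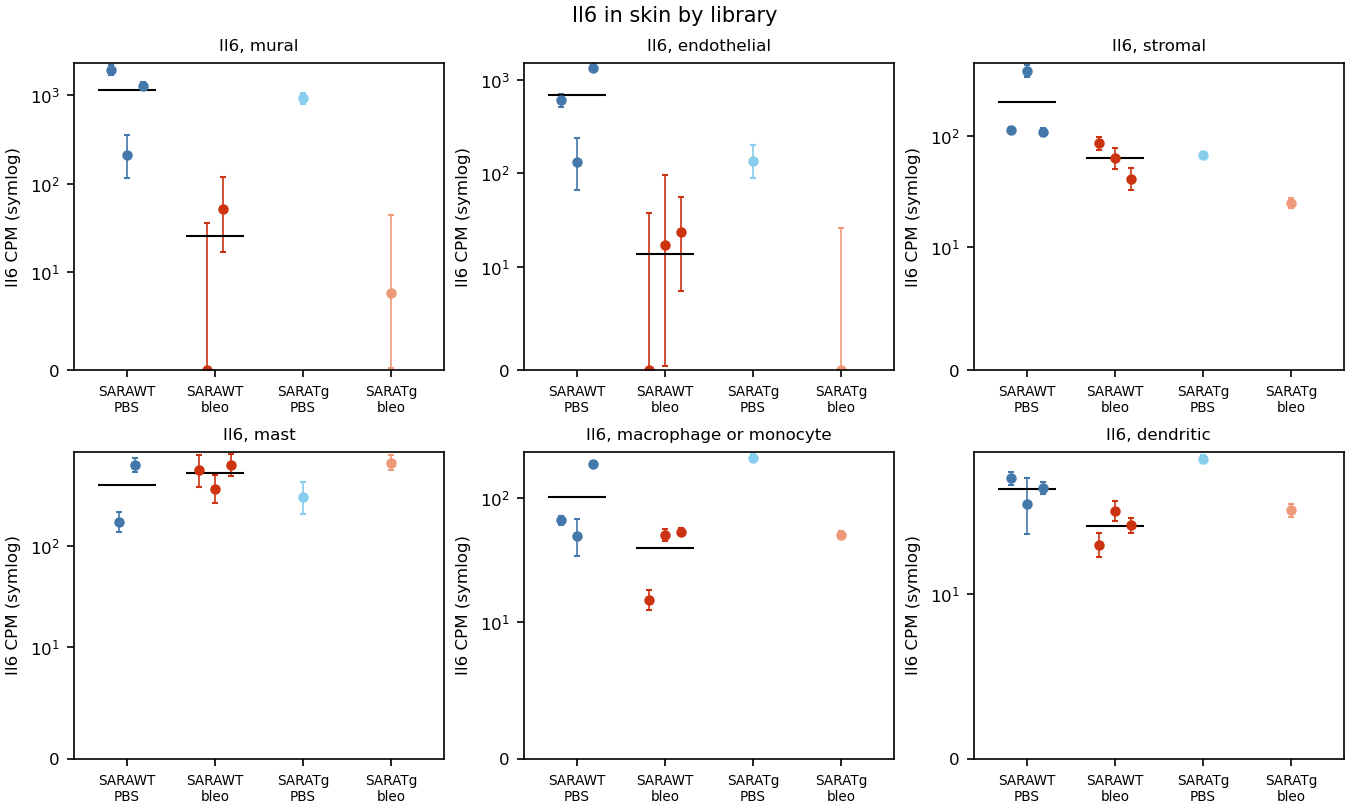
Il6 CPM by library in 6 skin classes, on a symmetric log axis that is linear near 0; each point is 1 library, vertical bars are 95% Poisson intervals for counting error, and horizontal lines are group means where a group has more than 1 library. Mural PBS points lie between 212 and 1930 CPM, above both bleomycin points at 0 and 51.3 CPM, while the mast cell points of the groups overlap.

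In stromal cells, the fibroblast class, the IL-11 receptor chain fell and its ligand did not pass the test. Il11ra1, the IL-11 binding chain, was at 336, 338 and 223 CPM in PBS 1, 2 and 3 and at 87.6, 131 and 73.4 CPM in bleomycin 1, 2 and 3. All of the 3 PBS values were above all of the 3 bleomycin values, and Il11ra1 fell by 1.60 on the log2 scale (SE 0.27, adjusted p = 0.037, edgeR) in a class where 2.07% of 10229 genes were called, 1.05% higher and 1.03% lower. Its own ligand Il11 was at 19.1, 29.4 and 24.9 CPM with PBS and 51, 40.7 and 70.8 CPM with bleomycin. These groups did not overlap either, and the log2 fold change of 1.20 (SE 0.28) had an adjusted p of 0.065 in edgeR and passed in 3 of 17 alternative settings. For Il11, 1 cell held 14 of the 21 UMIs in PBS 2, 16 of 54 in bleomycin 2 and 36 of 135 in bleomycin 3. The share of stromal cells with an Il11 UMI was 17.0, 5.43 and 16.1% with PBS and 15.6, 9.26 and 19.4% with bleomycin. These shares overlapped, and they also depend on the UMIs per cell. The SARATg libraries had stromal Il11ra1 at 199 CPM with PBS and 78 CPM with bleomycin, and Il11 at 15 and 49 CPM.

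Il31ra, the itch cytokine's receptor chain, fell in stromal cells from 7.05, 9.8 and 4.82 CPM in PBS to 0.411, 0.754 and 1.05 CPM after bleomycin, a log2 fold change of -3.14 (SE 0.56, adjusted p = 0.039, edgeR). All PBS libraries were above all bleomycin libraries, though the whole PBS group had only 82 UMIs of Il31ra in stromal cells. The highest value, that of PBS 2, came from 7 UMIs, 5 of them in 1 cell, and the bleomycin values came from 1, 1 and 2 UMIs. Without the libraries labelled PBS 1 and 3 it could not be tested. The SARATg libraries, with no test, had stromal Il31ra at 17.5 CPM with PBS (301 UMIs) and 0.279 CPM with bleomycin (4 UMIs). In keratinocytes Il31ra was too sparse to be tested. Il31, its ligand, had at most 10 UMIs in any skin library.

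The shared chain Il6st was at 312, 251 and 292 CPM in stromal cells with PBS and 106, 174 and 135 CPM with bleomycin. The groups were apart, with a log2 fold change of -1.04 (SE 0.22) and an adjusted p of 0.056 in edgeR. Il6ra had 36.5, 71.4 and 75.8 CPM against 19.8, 24.1 and 36.7 CPM (log2 fold change -1.18, SE 0.36, adjusted p = 0.111, edgeR), with the lowest PBS value just under the highest bleomycin value. Osmr, Lifr and Lif overlapped or nearly overlapped between groups: Osmr was at 38.1, 89.6 and 106 CPM against 62.1, 54.3 and 53.5 CPM, and Lif at 21.7, 42 and 28.3 CPM against 28.8, 27.9 and 22.5 CPM. Of 9 genes tested in stromal cells 8 had a negative log2 fold change, with a median of -1.04 beside -0.027 over all genes of the class.

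The stromal calls depended on how libraries were treated. Libraries of the same number varied together in stromal cells (correlations of 0.296 to 0.504 over the 3 pairs), and a fit with the replicate number as a block called Il11ra1 (-1.62, adjusted p = 0.010), Il31ra (-3.16, adjusted p = 0.036), Il6ra (-1.12, adjusted p = 0.032), Il6st (-1.05, adjusted p = 0.033) and, upward, Il11 (1.24, adjusted p = 0.035) in edgeR. Il11ra1 lost its call when any single library other than PBS 3 was left out (adjusted p from 0.0571 to 0.165), with fold changes from -1.41 to -1.84. Il31ra lost its call when PBS 2 or 3 or bleomycin 1, 2 or 3 was left out (adjusted p from 0.0594 to 0.206) and could not be tested without PBS 1. With cells of shared barcodes left out Il11ra1 was at -1.08 (adjusted p = 0.390) and Il11 at 0.55 (adjusted p = 0.80), and without the libraries labelled PBS 1 and 3 they were at -1.81 (adjusted p = 0.137) and 0.87 (adjusted p = 0.39), all in edgeR.

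Pi16 and Cthrc1, which mark subtypes of stromal cells, also differed between the same libraries, without a test. Mfap5, Crabp1 and Dpt were looked up with them and are not shown, and Cthrc1 is also a stromal marker of the gate. The values of Pi16 and Cthrc1 therefore stand for these genes alone and are not read as a shift between subtypes. Pi16, a marker of adventitial fibroblasts, was at 1064, 1270 and 337 CPM in stromal cells with PBS and 109, 222 and 45.6 CPM with bleomycin, and Cthrc1, a marker of activated stromal cells, was at 26.3, 67.2 and 90.1 CPM and 466, 173 and 112 CPM. The 10 immediate early and heat shock genes summed to 6789, 9426 and 6141 CPM with PBS and 3257, 5083 and 4012 CPM with bleomycin. All of the 12 stromal markers were detected in every library, with summed levels of 30100 to 43471 CPM with PBS and 16102 to 31178 CPM with bleomycin. The part of these differences in the Il11ra1, Il11, Il31ra and Il6st values, and in the stromal Saa3 values given below, was not tested.

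**Figure D3:**
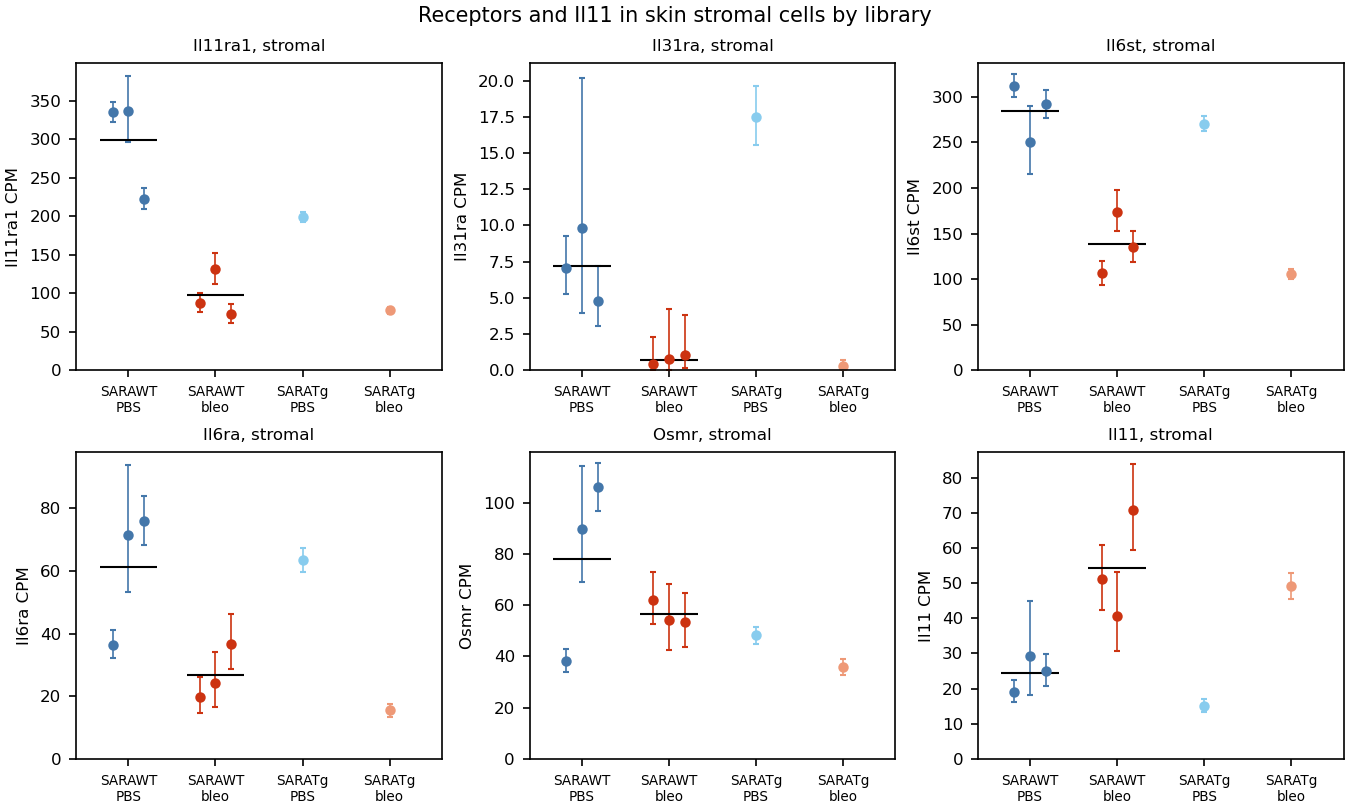
CPM by library in skin stromal cells for Il11ra1, Il31ra, Il6st, Il6ra, Osmr and Il11, on linear axes from 0; points are libraries, vertical bars are 95% Poisson intervals and horizontal lines are means of groups with more than 1 library. Il11ra1 points with PBS lie between 223 and 338 CPM and with bleomycin between 73.4 and 131 CPM, and Il11 points lie the other way round.

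Osm and its receptor were followed from source to receiver. Osm in macrophages or monocytes was at 87.6, 52 and 83.5 CPM with PBS and 113, 128 and 164 CPM with bleomycin. The groups did not overlap, and the log2 fold change of 0.92 had an adjusted p of 0.310 in edgeR. Dendritic cells had 12.6, 5.53 and 8.87 CPM against 21, 11.9 and 16.3 CPM (log2 fold change 0.81, adjusted p = 0.376, edgeR), with 1 overlapping pair of libraries. In neutrophils, the class with the highest level, Osm was at 387, 85.6 and 166 CPM with PBS and 442, 204 and 210 CPM with bleomycin, and the groups overlapped. The single SARATg libraries had Osm at 115 CPM with PBS and 144 CPM with bleomycin in macrophages or monocytes.

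Osmr was lower after bleomycin in vessel wall cells, short of the threshold. In mural cells it was at 254, 196 and 188 CPM with PBS and 58.7 and 113 CPM with bleomycin (log2 fold change -1.23, SE 0.43, adjusted p = 0.071, edgeR), and the fold change was -1.06 (adjusted p = 0.520) without the libraries labelled PBS 1 and 3. Endothelial Osmr was at 212, 96.5 and 189 CPM against 20.2, 34.1 and 66 CPM (log2 fold change -1.89, adjusted p = 0.172, edgeR), with no overlap, and could not be tested without those libraries. Muscle progenitors had 83.9 and 109 CPM against 30.6, 25 and 71.8 CPM.

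Il6st and Lifr were lower in several receiving classes, again without a call. Macrophage or monocyte Il6st was at 106, 98.4 and 76.4 CPM with PBS and 30.5, 49.6 and 51.2 CPM with bleomycin (log2 fold change -1.0, adjusted p = 0.264, edgeR). Dendritic Il6st was at 123, 112 and 117 CPM against 39.7, 66.4 and 74.4 CPM (log2 fold change -0.91, adjusted p = 0.281, edgeR). Endothelial Lifr was at 161, 145 and 143 CPM against 20.2, 51.1 and 70.7 CPM (log2 fold change -1.51, adjusted p = 0.206, edgeR). In each of these 3 cases every PBS library was above every bleomycin library. No gene of any kind was called in macrophages or monocytes (0 of 11002 in edgeR, 1175 at an unadjusted p under 0.05) or in endothelial cells (0 of 2808, 296 at an unadjusted p under 0.05), so these classes had no call against which to read the family. In the 4 libraries of the longer gene list alone, macrophage or monocyte Osm (0.86, adjusted p = 0.039), Il6st (-1.21, adjusted p = 0.020) and Lifr (-0.96, adjusted p = 0.022) passed in edgeR. That setting was added after seeing the data, compares PBS 1 and 2 with bleomycin 1 and 2, and rests on the libraries with many shared barcodes. PBS 1 is also a library whose human ZFYVE9 level went against its label. Osm and Il6st each passed in 1 of 17 alternative settings.

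**Figure D4:**
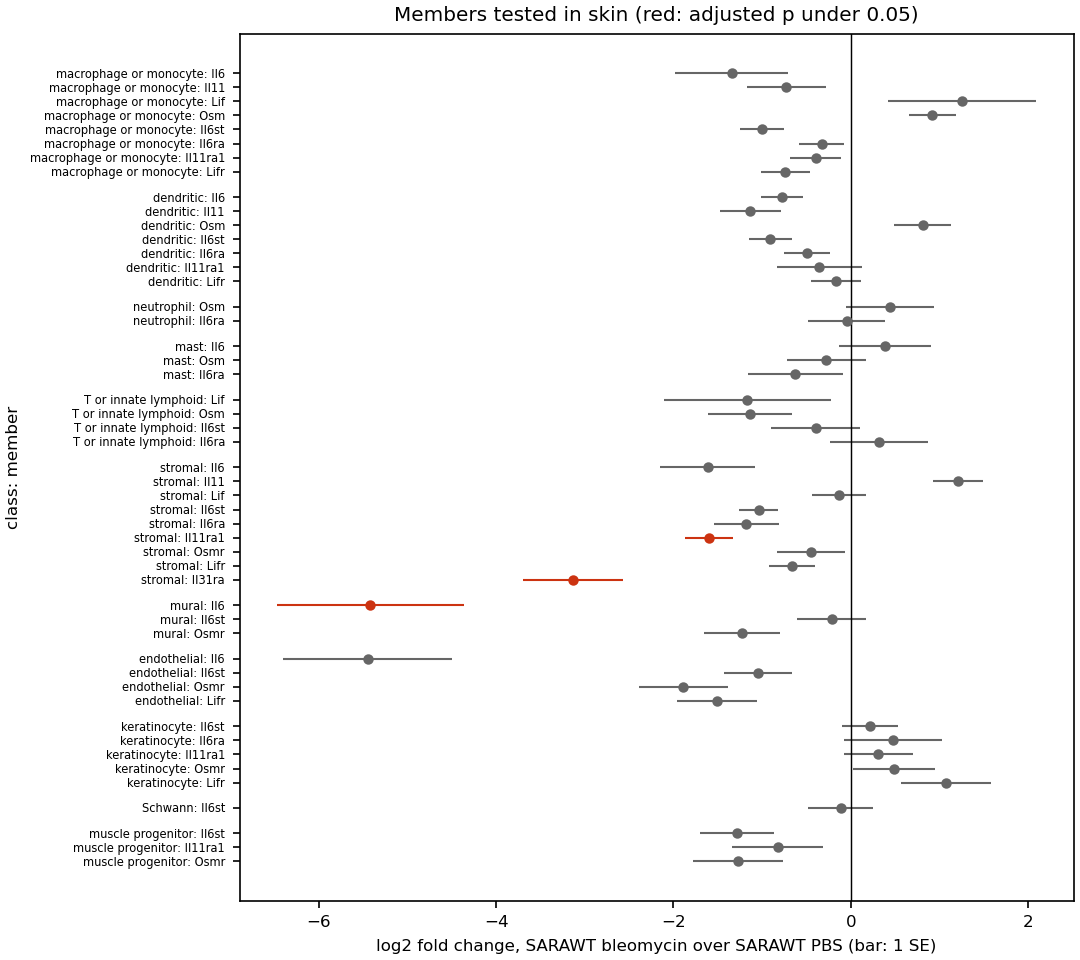
Log2 fold change of SARAWT bleomycin over SARAWT PBS (horizontal axis) with bars of 1 SE for the 49 pairs of skin class and gene that were tested, in red where the adjusted p was under 0.05. The 3 red points are mural Il6 (-5.42), stromal Il31ra (-3.14) and stromal Il11ra1 (-1.60), all left of 0, where 37 of the 49 points lie. Mural Il6 and stromal Il31ra passed the filter on low counts through the PBS libraries alone. So did, among the grey points, endothelial Il6, Osmr and Lifr and mural Osmr.

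Genes around the family were read from 4 lists of 39 genes in skin: other family members, signal transducers and sheddases, feedback inhibitors, and genes known to respond to STAT3. Of 228 gene and class pairs tested 3 rose and 3 fell, beside 0.959% called over all pairs. Of 43 pairs of feedback inhibitors, which include Socs3, the main brake on gp130, 0 were called in edgeR (1 higher and 9 lower at an unadjusted p under 0.05), and of 68 pairs of signal transducers and sheddases 0 were called (5 higher and 8 lower at an unadjusted p under 0.05), beside 13.9% of all pairs at that unadjusted threshold. The 99 pairs of STAT3-responsive genes had 3 calls higher and 2 lower. Cebpb, a transcription factor of the acute phase response, fell in mural cells from 3414, 5062 and 3445 CPM to 323 and 257 CPM (log2 fold change -3.68, SE 0.34, adjusted p = 0.000228, edgeR), in the class where 16.1% of genes were called and in the libraries whose mural markers were lower and stromal and Schwann cell markers higher after bleomycin, the part of which was not tested. Saa3, an acute phase protein, rose in stromal cells from 3.93 to 18.6 CPM with PBS to 76.5 to 119 CPM with bleomycin (log2 fold change 3.23, SE 0.55, adjusted p = 0.037, edgeR). Timp1, an inhibitor of matrix metalloproteinases, rose in muscle progenitors (3.30, SE 0.47, adjusted p = 0.019) and in Schwann cells (1.68, SE 0.32, adjusted p = 0.042) in edgeR, classes where 1.09% of genes (0.444% higher, 0.648% lower) and 0.703% of genes were called. In muscle progenitors, Cebpd, a relative of Cebpb, fell by 2.09 on the log2 scale (SE 0.38, adjusted p = 0.042, edgeR).

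Of these calls in the surrounding lists, that of Cebpb held in the 14 of 14 alternative settings that could be fitted. Stricter cells, a stricter gate and shared barcodes left out could not be fitted in mural cells. Without the libraries labelled PBS 1 and 3, Cebpb was at -4.0, with PBS 2 and its 11 mural cells as the 1 PBS library. Saa3 passed in 10 of 17 settings and lost its call when PBS 2 or bleomycin 1, 2 or 3 was left out (adjusted p from 0.0771 to 0.164, edgeR), when the libraries labelled PBS 1 and 3 were left out (3.56, adjusted p = 0.0695) and when shared barcodes were (3.15, adjusted p = 0.322). Timp1 in Schwann cells passed in 5 of 17 settings, was lost when any single library other than bleomycin 2 was left out (adjusted p from 0.0571 to 0.171, edgeR), and was at 1.96 (adjusted p = 0.384) without the libraries labelled PBS 1 and 3. In muscle progenitors Timp1 passed in 12 of 15 settings, and was lost without PBS 3 or bleomycin 1 or 2 (adjusted p from 0.0767 to 0.0836, edgeR). Cebpd passed in 10 of 15 settings, and was lost without PBS 1 or bleomycin 1, 2 or 3 (adjusted p from 0.0583 to 0.183, edgeR). Muscle progenitors had no PBS library left without those labelled PBS 1 and 3.

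In kidney, where means again pool all libraries, the ligands were scarce apart from Osm. Osm was at 417 ± 223 CPM in neutrophils (n = 9), 24.7 ± 6.57 CPM in natural killer cells and 11.8 ± 7.01 CPM in macrophages or monocytes (n = 9). Il6 reached no more than a mean of 3.53 ± 7.08 CPM (n = 8), in endothelial cells, where 5 libraries were at 0 and SARAWT vehicle 3 was at 19.5 CPM, without which the mean was 1.25 CPM, and Il11 stayed under 1 CPM in proximal tubule, endothelial cells and macrophages or monocytes. Il6st was highest in endothelial cells (119 ± 25.7 CPM, n = 8) and in cells gated on principal cell markers of the collecting duct (89.1 ± 18.6, n = 7), with proximal tubule at 48.7 ± 12.8 CPM (n = 9). Il6ra was highest in neutrophils (176 ± 49.4 CPM, n = 9) and macrophages or monocytes (102 ± 20.6, n = 9). Il11ra1 was highest in the distal convoluted tubule (86.6 ± 14.8 CPM, n = 9), Osmr in endothelial cells (57.2 ± 29.2, n = 8), and Lifr in endothelial cells (102 ± 46.7, n = 8) and macrophages or monocytes (95.5 ± 39.7, n = 9), which overlapped.

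Kidney classes were compared as in skin, within each library. Endothelial cells exceeded macrophages or monocytes by 5.06 for Osmr and 2.17 for Il6st on the log2(CPM + 1) scale, in 8 of 8 libraries (adjusted exact p = 0.0138), and were lower for Il6ra (-4.54) and Osm (-3.29) with the same adjusted exact p. Lifr did not differ detectably between these classes (0.0037, SD 0.322 over libraries, adjusted exact p = 0.961). Proximal tubule exceeded macrophages or monocytes for Il6st (0.83, 9 of 9 libraries) and was lower for Il6ra (-5.48), Osm (-2.77) and Lifr (-1.68), each in 9 of 9 libraries (adjusted exact p = 0.0138). Il11ra1 was alike in proximal tubule and macrophages or monocytes within the libraries' spread (0.06, SD 0.535, adjusted exact p = 0.804). Il31ra and Il6 also passed in kidney, as differences between levels that all averaged under 1 CPM.

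Aristolochic acid left no family gene past the threshold in SARAWT kidney. Of 10 genes 6 could be tested (not Il6, Il11, Lif and Il31ra), in 35 gene and class pairs, with 0 called in edgeR (1 higher and 4 lower at an unadjusted p under 0.05) where 0.00491% of 81389 pairs were called in all and 7.25% had an unadjusted p under 0.05. Osm in macrophages or monocytes was at 1.37, 11.6 and 10.2 CPM with vehicle and 21.4, 19.5 and 19.5 CPM with aristolochic acid, groups that did not overlap (log2 fold change 1.20, SE 0.48, adjusted p = 0.846, edgeR; 1.17, adjusted p = 0.950 without the library labelled SARAWT aristolochic acid 1). The SARATg vehicle libraries had 4.51 and 10.1 CPM, and the library labelled SARATg aristolochic acid 1, whose Zfyve9 level lay in the range of the SARAWT vehicle libraries, had 7.82 CPM. Il6, too sparse for the test, was at 0, 0 and 0.532 CPM in macrophages or monocytes with vehicle (8 UMIs in all) and at 2.63, 1.05 and 2.75 CPM with aristolochic acid (40, 2 and 25 UMIs). These groups were apart, but the vehicle libraries at 0 allowed up to 2.05 and 1.12 CPM (3 counts), and the library labelled SARATg aristolochic acid 1 was at 0.219 CPM. Lifr had negative fold changes in macrophages or monocytes (130, 118 and 69.8 CPM against 74.8, 44.3 and 59.8 CPM; -0.82, adjusted p = 0.846, edgeR) and in endothelial cells (178, 136 and 70.5 CPM against 51.9 and 54.9 CPM; -1.23, adjusted p = 1.0, edgeR). With the replicate block, endothelial Lifr was at -1.61 (adjusted p = 0.022, edgeR), though libraries of the same number did not vary together in that class. Il11ra1 in the proximal tubule was at 38.3, 39.1 and 37 CPM with vehicle and 30.8, 30.1 and 26.4 CPM with aristolochic acid (-0.54, adjusted p = 0.510, edgeR), with every vehicle library above every treated one. Without the library labelled SARAWT aristolochic acid 1 these fold changes were -1.02 (adjusted p = 0.923) for Lifr in macrophages or monocytes and -0.60 (adjusted p = 0.712) for Il11ra1, in edgeR. For endothelial Lifr it was -1.34, with 1 treated library of 17 cells, so the spread came from the vehicle libraries. Of 224 pairs of the surrounding lists 0 were called in edgeR (11 higher and 7 lower at an unadjusted p under 0.05, beside the same 7.25% over all pairs).

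The SARA transgene was compared with SARAWT in vehicle kidneys, where 0 of 39 pairs were called in edgeR (2 higher and 1 lower at an unadjusted p under 0.05) and 0.161% of 91753 pairs in all, 6.12% of which had an unadjusted p under 0.05. Il6ra in T or innate lymphoid cells was at 12.9, 23.7 and 8.73 CPM in SARAWT and 67.9 and 40.5 CPM in SARATg (log2 fold change 2.11, SE 0.39, adjusted p = 0.265, edgeR). Il6st in the same cells was at 18.3, 13.7 and 12.3 CPM against 40 and 27.8 CPM (1.37, SE 0.27, adjusted p = 0.316, edgeR). Both genes had non-overlapping groups, and the library labelled SARATg aristolochic acid 1 sat lower, at 17.8 and 13.3 CPM. The library labelled SARAWT vehicle 3 held 3100 T or innate lymphoid cells, against 298 and 379 in the other SARAWT vehicle libraries. The class gated on principal cell markers had Aqp2, Fxyd4 and Hsd11b2 among its leading genes, but also Upk3a of urothelium. Osmr in this class was at 23.3, 31.5 and 25.6 CPM against 0 and 5.9 CPM (-2.67, SE 0.74, adjusted p = 0.105, edgeR), from 0 and 4 UMIs in the SARATg libraries. The fold change was -2.19 without SARATg vehicle 1. Without SARATg vehicle 2 it was -6.54, from 1 SARATg library with 0 UMIs, a value that the prior count sets and not a measured fold. Osmr in this class passed in 1 of 10 settings (no filter on low counts, adjusted p = 0.017, edgeR). Of 238 pairs of the surrounding lists 1 fell, Socs2, an inhibitor of cytokine signalling, in B cells (19.3, 19.2 and 18.6 CPM against 4.18 and 3.14 CPM; -2.98, SE 0.39, adjusted p = 0.018, edgeR), in a class where 0.891% of genes were called. These levels rest on 4 to 25 UMIs a library. Socs2 in B cells was at 19.9 CPM in the library labelled SARATg aristolochic acid 1, and at 7.45, 4.07 and 2.55 CPM in the SARAWT aristolochic acid libraries, which reach down to the SARATg vehicle level. Without either SARATg library it did not pass (adjusted p = 0.167 and 0.425, edgeR).

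**Figure D5:**
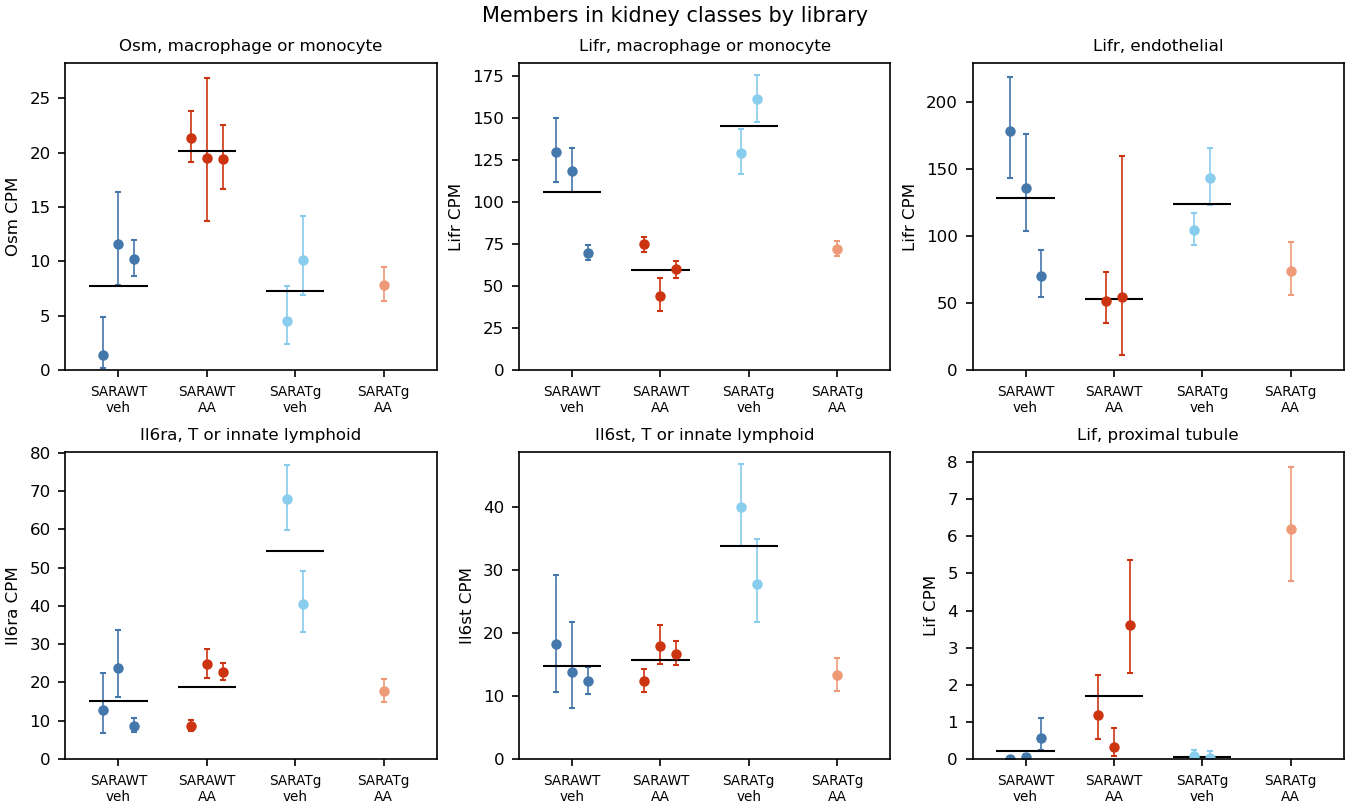
CPM by library in kidney for Osm and Lifr in macrophages or monocytes, Lifr in endothelial cells, Il6ra and Il6st in T or innate lymphoid cells and Lif in the proximal tubule, on linear axes from 0 (veh, vehicle; AA, aristolochic acid); points are libraries, vertical bars are 95% Poisson intervals and horizontal lines are means of groups with more than 1 library. Macrophage Osm lies between 19.5 and 21.4 CPM in the SARAWT aristolochic acid libraries and between 1.37 and 11.6 CPM in the SARAWT vehicle libraries.

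Genes with the most similar pattern were searched among 12364 genes over 25 tissue and class means, which share libraries and depth, and the correlations are descriptions. Among the closest to Osm were Lilr4b (r = 0.942) and Lilrb4a (0.922). For Osmr they were Pcdh19 (0.954), Cav1 (0.938) and Ehd2 (0.915), and for Il11ra1 Zfp704 (0.912), Ube2e2 (0.912) and Tceal8 (0.911). Several of these neighbours are genes of myeloid cells (Lilr4b, Lilrb4a) or of caveolae (Cav1, Ehd2), as their names are known. Il6st was nearest to Tmtc3 (0.921), Dip2c (0.914) and Ppfibp1 (0.910), Il6ra to Pirb (0.865), Lpcat2 (0.862) and Tgfbi (0.843), and Lifr to Cttnbp2nl (0.884), Rin2 (0.884) and Dock1 (0.872). Lif was nearest to Creb3l1 (0.907), Ddias (0.841) and Mapk6 (0.822), Il11 to Efna2 (0.879), Phf13 (0.870) and Nme2 (0.855), Il31ra to Gjb5 (0.885), Col7a1 (0.881) and Gpha2 (0.880), and genes near Il6 included 1700016G22Rik (0.853) and Efna2 (0.845).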

How the data were processed

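The deposited files are UMI counts per gene and cell, not normalized, which the authors made from libraries of the 10x Genomics 3′ protocol. The submitters' processing notes name the build mm10, Cell Ranger 3.0.2 and Seurat 2.3.4. Per the file headers, Cell Ranger 4.0.0 made 4 skin libraries (32286 genes listed, human ZFYVE9 included), 3.1.0 the other skin libraries and 3.0.2 the kidney libraries (31053 genes each); the 30406 shared genes were used. The labels give bleomycin 3 times a week, while the study's methods describe daily injection.

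Cells were kept from 200 detected genes upward and up to 20% (skin) or 50% (kidney) mitochondrial UMIs, and the highest 0.8% of doublet scores per 1000 cells (scanpy 1.11.5) were left out. A cell joined a class with UMIs of at least 2 of its markers and a marker score at least 2 times the next class. Classes under 50 cells were not used. Sums of UMIs over the cells of a class in a library were tested in edgeR 4.0.16 (quasi-likelihood, filterByExpr, TMM) with at least 10 cells a library and 2 libraries a group, Benjamini-Hochberg per class, threshold 0.05. Class pairs were compared by an exact sign-flip test of log2(CPM + 1). Scripts were tested on simulated data. The 10 genes, the surrounding lists and the markers were chosen with earlier results of these data known. Genes named from those lists passed the threshold, at most 4 a list and comparison, and similar genes are the 3 best correlated. Intervals cover counting error only. Total UMIs per library ran from 3355217 to 137093834.

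Replicate numbers were taken to pair libraries where every same-numbered pair correlated over 0.1 with 3 pairs: skin stromal (0.296 to 0.504), dendritic (0.266 to 0.642) and macrophage or monocyte cells (0.411 to 0.668). The same numbers also share a gene list. Alternatives were DESeq2 1.42.0, its size factors in edgeR, no filter on low counts, adjustment over all classes together, stricter cells, a stricter gate, doublets kept, cells with shared barcodes left out, a replicate block and each library left out. After seeing the data, fits without the libraries labelled skin SARAWT PBS 1 and 3, and with the longer gene list alone, were added. Values of 3 genes among the surrounding lists and the most similar patterns are not reported here; they remain in the counts over lists.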

Additional observations from a re-analysis of the deposited data

Results flagged for a closer look

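Signals above the libraries labelled SARAWT PBS or vehicle appeared in SARATg libraries that entered no treatment test, as the lower 95% Poisson limit lay more than 2 times above the highest of those libraries and at least 10 UMIs were counted. Il6 in T or innate lymphoid cells was at 6.89 CPM (10 UMIs, interval 3.30 to 12.7) in the skin SARATg PBS library and at 4.20 CPM (22 UMIs, interval 2.63 to 6.36) in the skin SARATg bleomycin library, beside 0.962 and 0.747 CPM in the libraries labelled SARAWT PBS 1 and 3, whose ZFYVE9 levels went against their labels. PBS 2 had only 8 such cells and was not used. With the same treatment the SARAWT bleomycin libraries were at 0, 2.43 and 0.816 CPM, so the lower limit of the SARATg bleomycin value was not 2 times above the highest of them. The 2 SARATg skin libraries had Il6 at 87 CPM (PBS) and 46.9 CPM (bleomycin) over all cells and at 15.8 and 20.7 CPM in keratinocytes, so the values in T or innate lymphoid cells are below the level of the libraries as a whole, and they are not read as expression by these cells. The intervals cover counting error in 1 library only. Lif in the proximal tubule was at 6.19 CPM (66 UMIs, interval 4.79 to 7.88) in the library labelled kidney SARATg aristolochic acid 1, beside at most 0.557 CPM in 3 SARAWT vehicle libraries and 1.19, 0.331 and 3.6 CPM in the SARAWT aristolochic acid libraries. Over all cells of that library Lif was at 3.78 CPM (202 UMIs), so the signal was not particular to the proximal tubule. Over all cells, SARAWT vehicle libraries had at most 0.426 CPM and SARAWT aristolochic acid libraries at most 0.875 CPM. The Zfyve9 level of 19.7 CPM in the library labelled SARATg aristolochic acid 1 went against its label. The cause of these levels was not tested.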

How the results depend on the processing

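In skin, 3 family pairs were called for bleomycin. The count was 0 with adjustment over all classes together, 7 with DESeq2, 9 without a filter on low counts, 7 with the replicate block, 1 with stricter cells, 1 with shared barcodes left out, 0 without the libraries labelled SARAWT PBS 1 and 3 and 6 with the longer gene list alone, and 0 to 3 with each library left out. The surrounding lists had 6 calls, against 3, 20, 40, 19, 2 (shared barcodes), 1 and 22 under the same settings apart from stricter cells, and 1 to 8 with each library left out. With the replicate block, endothelial Il6 also passed (-5.75, adjusted p = 0.014, edgeR), in a class where numbers did not pair libraries. For aristolochic acid, family calls went from 0 to 1 with the block, and stayed at 0 to 0 with each library left out; the lists went from 0 to 3 (DESeq2), 7 (no filter) and 5 (block), and 0 to 9 with each library left out. For the transgene in kidney, family calls went from 0 to 1 (DESeq2, Il6ra in T or innate lymphoid cells, adjusted p = 0.006) and 4 (no filter), and 0 to 0 with each library left out; the lists went from 1 to 0 (all classes together), 4 (DESeq2), 17 (no filter), 15 (block) and 0 (stricter gate), and 0 to 1 with each library left out. The class comparisons had 20 of 30 calls, and 19 to 20 with each library left out. For the 22 gene and class pairs followed one by one, 267 alternative fold changes stayed on their side of the threshold, 52 lost their call and 18 gained one, with no change of direction. Over all 1853 alternative fold changes of the 123 family pairs tested, 27 gained a call, 20 lost one and 128 changed direction, 0 of these with a call in either fit. Mural cells could not be fitted with stricter cells, a stricter gate or shared barcodes left out. The cause of these changes was not tested. Low depth limits Il31ra, Il31 and the mural and endothelial classes of skin, where 1 cell can set a value.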
